A study of Homo sapiens with 4 samples.

Results

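The zinc finger genes of chromosome 19p12 form a tandem array of paralogs, and this account follows 36 named genes of that array. They were chosen by name and location, not by a threshold on their values, and 33 of them had a row among the 18806 gene symbols of the expression table. ZNF66, ZNF724 and ZNF738 were not analysed here. On GRCh38 the 36 genes lie on chromosome 19 between 19668796 (the start of ZNF101) and 24129968 (the end of ZNF254), with 17 of the 33 measured genes on the plus strand and 16 on the minus strand. Of the 17774 symbols that could be given a position, no other lay inside this interval.

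RNA-seq was performed in Huh7, a human hepatocellular carcinoma cell line, to ask how loss of METTL16, an RNA m6A methyltransferase, changes gene expression. Both groups came from 1 clone that stably expressed Cas9, and the cells were infected with a lentiviral guide and selected with hygromycin B. The sgNS group (2 libraries) received a non-targeting guide and is labelled WT, and the METTL16 KO group (2 libraries) received a METTL16 guide and is labelled as a knockdown. The titles do not say whether both METTL16 KO libraries received the same guide. The study states 2 biological replicates per group without saying whether they were infected separately, so the p-values measure the spread between these libraries, which may be technical. The values are TPM, each gene's length-corrected share of all transcripts in a library, and they keep no read counts. The depth is therefore unknown, and no counting interval can be given. Tests used limma on log2(TPM + 0.1) across the 11971 genes whose mean over the 4 libraries reached 1 TPM, with Benjamini-Hochberg adjustment over all of them. In bulk RNA, fewer cells that express a gene and less RNA per cell cannot be told apart.

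For METTL16 itself the sgNS libraries gave 26.3 and 25.1 TPM and the METTL16 KO libraries 17.6 and 18.8 TPM. Its RNA fell by 0.50 on the log2 scale (SE 0.062, limma adjusted p 2.4e-05), and the groups did not overlap. Cas9 edits need not remove a transcript, so RNA gives only a partial check of the knockout. All 16 hepatocyte-lineage markers examined were at 57.2 TPM or more in every library, while 4 of 14 markers of other cell types had a mean of at least 1 TPM. Across all genes tested the median log2 fold change was 0.16 rather than 0, and each member is to be read against that shift.

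Most genes of this array encode proteins with a KRAB domain followed by a row of C2H2 zinc fingers. The fingers bind DNA, and the KRAB domain recruits TRIM28, a scaffold for the histone H3 lysine methyltransferase SETDB1 and for heterochromatin protein HP1. The array grew by duplication in the primate lineage, and several of its proteins bind retroelements. ZNF91 is known as a repressor of SVA elements and ZNF93 as a repressor of a group of young LINE elements.

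The genes also resembled each other in the DNA just upstream of their RefSeq start sites. RefSeq promoter windows (GRCh38.p14) were found for 28 of the 36 genes, 22 of which could be tested for expression. These start sites can differ from the GENCODE gene boundaries given elsewhere. ZNF43, for example, extends to 21852125 on the minus strand in GENCODE, so its stretch printed below lies inside the gene. Over the bases that aligned within the 250 upstream of the start site, the 378 pairs of members had a median identity of 83.9%, with a range of 66.0% to 92.0%. Gaps were left out, so a pair can rest on fewer bases, such as 156 for ZNF14 and ZNF714. Unrelated promoters were not aligned, so these identities have no background beside them. For ZNF682 the identities use a window without CCAAT, while the motif counts below also use its other window. The last 120 upstream bases are shown for ZNF91, the only gene of the array called lower on the values as deposited, for ZNF93, which is also linked to retroelements, for ZNF43, for the 3 neighbours ZNF430, ZNF714 and ZNF431, and for ZNF101, which rose most. Capitals mark the pentamer CCAAT, the core of the element bound by the factor NF-Y. The stretches lie at chr19:23395472-23395591 (ZNF91, minus strand), chr19:19900826-19900945 (ZNF93, plus strand), chr19:21836183-21836302 (ZNF43, minus strand), chr19:21020537-21020656 (ZNF430, plus strand), chr19:21082083-21082202 (ZNF714, plus strand), chr19:21141920-21142039 (ZNF431, plus strand) and chr19:19668719-19668838 (ZNF101, plus strand), and each is written 5′ to 3′ on the strand of its gene.
ZNF91: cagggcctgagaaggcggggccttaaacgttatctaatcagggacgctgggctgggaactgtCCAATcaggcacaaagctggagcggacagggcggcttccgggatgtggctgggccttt
ZNF93: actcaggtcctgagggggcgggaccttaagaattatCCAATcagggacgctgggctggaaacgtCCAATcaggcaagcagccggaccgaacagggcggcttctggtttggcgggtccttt
ZNF43: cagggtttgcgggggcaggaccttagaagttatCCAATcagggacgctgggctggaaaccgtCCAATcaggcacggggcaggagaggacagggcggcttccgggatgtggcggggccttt
ZNF430: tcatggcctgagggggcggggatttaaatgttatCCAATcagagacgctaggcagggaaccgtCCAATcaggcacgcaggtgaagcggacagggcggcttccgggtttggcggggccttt
ZNF714: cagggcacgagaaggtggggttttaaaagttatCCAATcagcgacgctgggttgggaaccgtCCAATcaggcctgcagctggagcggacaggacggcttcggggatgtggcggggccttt
ZNF431: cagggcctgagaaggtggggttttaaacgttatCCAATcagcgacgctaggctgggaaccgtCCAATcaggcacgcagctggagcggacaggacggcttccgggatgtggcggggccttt
ZNF101: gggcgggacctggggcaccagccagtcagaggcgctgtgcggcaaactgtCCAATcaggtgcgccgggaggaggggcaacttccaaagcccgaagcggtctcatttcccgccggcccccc

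The octamer CCAATCAG, which contains CCAAT, was present on either strand of the 250 upstream bases in 28 of 28 members. It was present in 4.59% of the 27305 genes with a window and in 12.2% of 526 zinc finger genes outside the array. At least 2 copies of CCAAT on the strand of the gene were found in 18 of 28 members, against 4.43% of all genes, and in 16 of these 18 the last 2 copies began 29 bases apart. ZNF91 and ZNF101, printed above, held 1 copy each. The GC box GGGCGG was present on either strand in 21 of 28 members, in 62.7% of zinc finger genes outside the array and in 46.2% of all genes. The heptamer CTTCCGG was present on either strand in 19 of 28 members, in 29.5% of the zinc finger genes outside the array and in 10.2% of all genes. The letters searched were chosen after some of these promoters had been read, and since the windows are duplicates of each other they are not independent of each other. At least 2 copies of CCAAT were found in 5 of the 10 members that rose and had a window. They were found in 8 of the 11 members that did not pass the test, and CCAATCAG was found in all members of both sets. ZNF506 and ZNF253 also rose but had no window. GGGCGG was found in 7 of the 10 and in 8 of the 11, and CTTCCGG in 4 of the 10 and in 9 of the 11. ZNF91 held all of these motifs, with 1 copy of CCAAT. These differences between members were not tested.

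Expression along the array was uneven (plot of TPM by library). Of the 33 genes, 15 had a mean of at least 10 TPM, 9 had a mean of 1 to 10 TPM and 9 were below 1 TPM and were not tested. In sgNS the 4 highest were ZNF91 with 47.7 ± 3.2 TPM (SD, n = 2), ZNF253 with 35.7 ± 1.1 TPM, ZNF93 with 32.5 ± 1.2 TPM and ZNF675 with 25.9 ± 1.5 TPM. In METTL16 KO the order was ZNF93 with 47.3 ± 3.0 TPM, ZNF253 with 40.6 ± 1.1 TPM, ZNF675 with 37.0 ± 1.6 TPM and ZNF91 with 32.1 ± 2.3 TPM. ZNF91 thus moved from rank 1 to rank 4, and ZNF101 from rank 11 to rank 5. ZNF93 passed ZNF253. Among these 4 genes, neighbours in the order did not overlap within either group. The ranks of ZNF101 are less certain. Its libraries overlapped those of ZNF100 and ZNF43 in sgNS and those of ZNF506 in METTL16 KO.

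**Figure D1:**
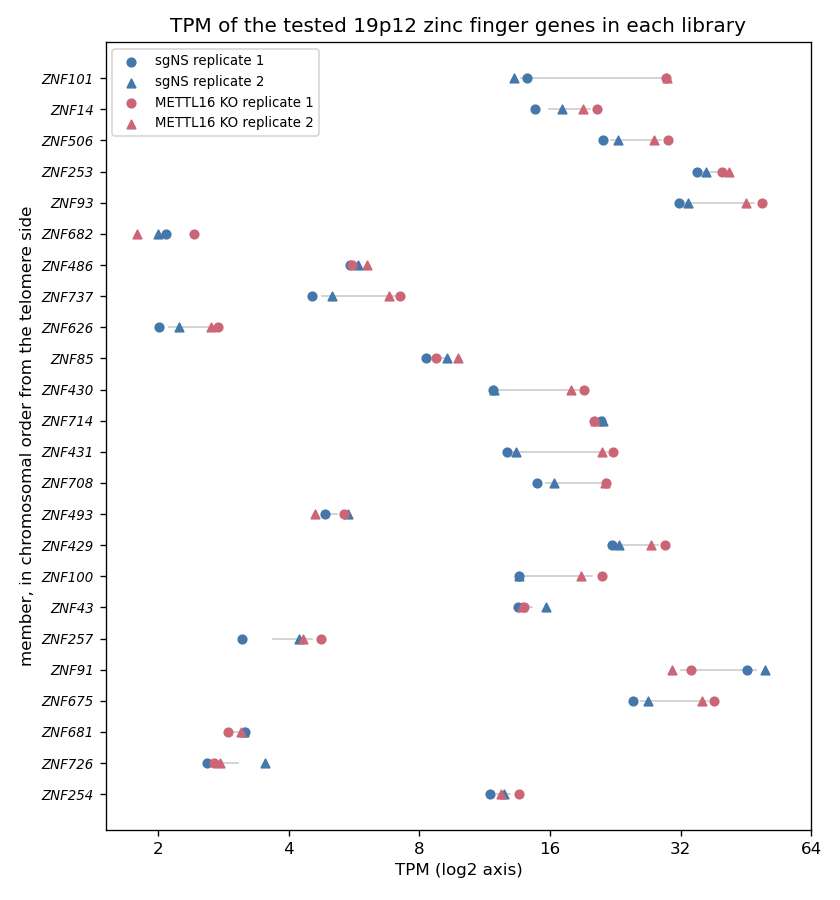
TPM (log2 axis) of the 24 tested members in each of the 4 libraries, ordered along the chromosome; blue is sgNS, red is METTL16 KO, circles and triangles are replicates 1 and 2, and grey lines join the group means. ZNF101 went from about 14 to about 30 TPM, ZNF91 is the only gene whose red points lie well below the blue ones, and ZNF714 stays between 20.3 and 21.1 TPM while ZNF430 and ZNF431 on either side of it shift to the right.

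The genes with little or no RNA lay side by side. From ZNF208 to ZNF730 the table holds 9 genes. Of these, 7 did not exceed 0.03 TPM in any library, and ZNF492, ZNF99, ZNF729 and ZNF730 were listed at 0 in all 4. The exceptions in this stretch were ZNF257, listed at 3.13 and 4.23 TPM (sgNS) against 4.76 and 4.31 TPM (METTL16 KO), and ZNF676, listed at 0.33 and 0.35 TPM against 0.51 and 0.53 TPM. ZNF90, outside the stretch, was listed at 0.41 and 0.29 TPM against 0.19 and 0.23 TPM. When all genes above 0 in at least 1 library were fitted, ZNF676 stood at a log2 fold change of 0.49 (limma adjusted p 0.070) and ZNF90 at -0.53 (limma adjusted p 0.12), so neither passed.

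Of the 24 genes tested, 12 rose, 1 fell and 11 did not pass an adjusted p of 0.05 in limma. Among all genes tested, 50.1% were called higher and 25.6% lower, and the array, with 50.0% and 4.17%, was at the background for rises and had a smaller share of falls, namely ZNF91 alone. The median log2 fold change was 0.31 over the members and 0.16 over all genes. A negative value was found in 6 of the 24 members and in 4375 of the 11971 genes tested. Read against the shift of all genes, 14 of the 24 members were above the median gene, as were 5985 of all genes tested. Both METTL16 KO libraries lay above both sgNS libraries in 14 members, where 56.8% of all genes did so, and below them in 3, where 30.7% of all genes did so. With an unadjusted p under 0.01 and a log2 fold change of at least 1, only ZNF101 passed (7.69% of all genes), and no member passed in the other direction (3.75% of all genes), where 1 member had an unadjusted p under 0.05 in limma.
The calls depended on scaling. Median-ratio scaling, in which the typical gene is made equal between libraries, gave 9 higher and 3 lower members, the 9 being among the 12 above, where 33.8% of all genes were higher and 38.9% lower. Quantile normalization gave 9 and 4, where 36.9% of all genes were higher and 35.5% lower. The share of rises among all calls in the array was 92.3% as deposited, 75.0% after median-ratio scaling and 69.2% after quantile normalization. Over all genes it was 66.2%, 46.5% and 51.0%. The members' median also depended on a single library. Without sgNS replicate 1 it was 0.18, beside 0.17 for all genes, and without sgNS replicate 2 it was 0.38, beside 0.16. In 21 of the 24 tested members sgNS replicate 2 was above sgNS replicate 1.

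**Figure D2:**
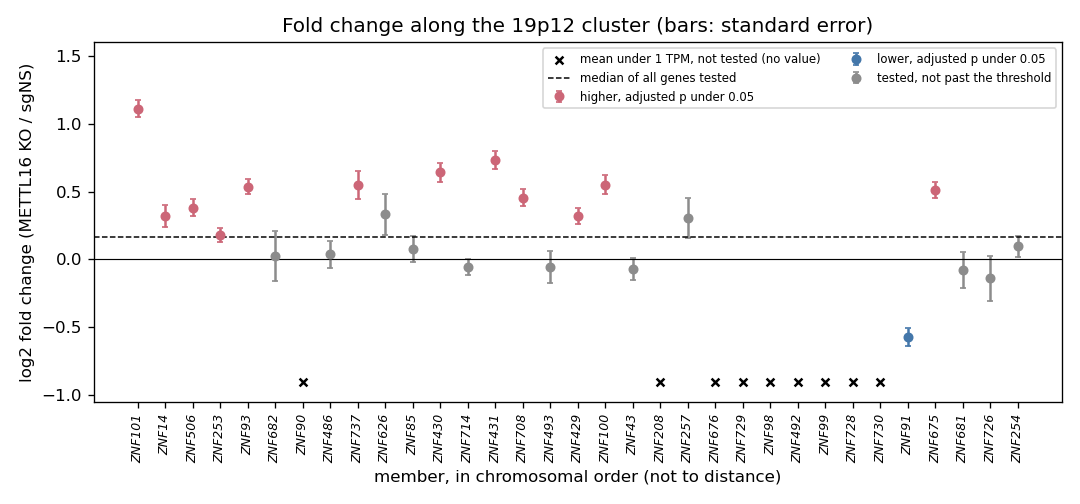
Log2 fold change (METTL16 KO over sgNS, on log2(TPM + 0.1)) of each measured member in chromosomal order, with standard errors from limma; red passed an adjusted p of 0.05 upward, blue downward, grey did not pass, and crosses mark genes below 1 TPM, which have no value. The 12 genes that rose include every gene from ZNF101 to ZNF93, and beyond ZNF93 they are interspersed with genes that did not pass. The genes from ZNF681 to ZNF254 did not pass, and ZNF91 at -0.57 stands next to ZNF675 at 0.51.

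ZNF101 had the largest rise. The sgNS libraries held 14.1 and 13.2 TPM of its RNA and the METTL16 KO libraries 29.6 and 29.8 TPM, which is a log2 fold change of 1.11 (SE 0.062, limma adjusted p 4.7e-08). ZNF101 lies from 19668796 to 19683509 on the plus strand and is the outermost gene of the array. Its promoter was the least like the others, with a median identity of 72.2%. Its minus-strand neighbour ZNF14 was listed at 14.7 and 17.0 TPM against 20.5 and 19.1 TPM. ZNF14 passed (log2 fold change 0.32, limma adjusted p 0.0033), but its adjusted p was 0.18 with median-ratio scaling and 0.066 without METTL16 KO replicate 1.

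ZNF431, which has been described as a repressor of the Hedgehog receptor gene PTCH1, lies from 21142024 to 21196053 and went from 12.7 and 13.4 TPM in the sgNS libraries to 22.4 and 21.1 TPM in the METTL16 KO libraries (log2 fold change 0.73, limma adjusted p 2.1e-06). ZNF430, from 21020634 to 21060050, was listed at 11.8 and 11.9 TPM against 19.2 and 17.9 TPM (log2 fold change 0.64, limma adjusted p 7.3e-06). Both rose, without overlap between the groups. ZNF714, which lies between them from 21082159 to 21125270, was listed at 20.9 and 21.1 TPM against 20.3 and 20.3 TPM, and did not pass (log2 fold change -0.05, limma adjusted p 0.42). With median-ratio scaling ZNF714 was at -0.25 and passed as lower (limma adjusted p 0.0026), and it also passed as lower with quantile normalization (-0.24) and in the unmoderated linear model. Within a library the ratio of ZNF431 to ZNF714, which no scaling of the library can move, was 0.607 and 0.632 in sgNS and 1.10 and 1.04 in METTL16 KO. The ratio of ZNF430 to ZNF714 moved likewise, from 0.564 and 0.563 to 0.947 and 0.884. The promoters of ZNF714 and ZNF431 had an identity of 92.0%, the highest of the 378 pairs, and both hold 2 copies of CCAAT in the stretches printed above. The next closest pairs were ZNF90 and ZNF486 (91.9%), ZNF708 and ZNF429 (91.6%) and ZNF486 and ZNF626 (91.2%). ZNF708 and ZNF429 both rose, ZNF486 and ZNF626 did not pass, and ZNF90 was below 1 TPM.

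ZNF100 was listed at 13.5 and 13.6 TPM against 21.1 and 18.9 TPM (log2 fold change 0.55, limma adjusted p 3.4e-05). Its neighbour on the same strand, ZNF43, was listed at 13.5 and 15.6 TPM against 13.9 and 13.8 TPM. The ZNF43 groups overlapped, and its log2 fold change of -0.07 did not pass (limma adjusted p 0.46). With median-ratio scaling ZNF43 was at -0.26 and passed as lower, and without sgNS replicate 2 it was at 0.04. Within a library the ratio of ZNF100 to ZNF43 was 1.00 and 0.870 in sgNS and 1.52 and 1.37 in METTL16 KO. ZNF737 was the only gene under 10 TPM to rise, from 4.52 and 5.03 TPM to 7.21 and 6.82 TPM (log2 fold change 0.55, limma adjusted p 5.5e-04).

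ZNF93, from 19900913 to 19963464 on the plus strand, went from 31.7 and 33.4 TPM in the sgNS libraries to 49.4 and 45.2 TPM in the METTL16 KO libraries (log2 fold change 0.54, SE 0.058, limma adjusted p 7.9e-06). ZNF675, reported to restrain TRAF6 signalling, was listed at 24.9 and 27.0 TPM against 38.2 and 35.9 TPM (log2 fold change 0.51, limma adjusted p 1.6e-05). ZNF708 was listed at 15.0 and 16.3 TPM against 21.6 and 21.4 TPM (log2 fold change 0.46, limma adjusted p 8.1e-05). None of these 3 genes had overlapping groups, and each was above the median gene, by 0.37, 0.35 and 0.29 on the log2 scale.
Smaller rises were found in ZNF506, ZNF429 and ZNF253. ZNF506 was listed at 21.2 and 23.0 TPM against 30.0 and 27.7 TPM and had a log2 fold change of 0.38. ZNF429 was listed at 22.3 and 23.0 TPM against 29.4 and 27.3 TPM and had one of 0.32, and ZNF253 was listed at 34.9 and 36.5 TPM against 39.8 and 41.3 TPM and had one of 0.18. Their adjusted p-values were 2.6e-04, 5.1e-04 and 0.0072 in limma. ZNF253 stood 0.02 above the median gene and was at -0.01 with median-ratio scaling, and it missed the threshold without METTL16 KO replicate 2 (limma adjusted p 0.090). ZNF429 had an adjusted p of 0.077 with median-ratio scaling.

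ZNF91 was the most abundant gene of the array in sgNS, and it fell. Its RNA went from 45.5 and 50.0 TPM in the sgNS libraries to 33.7 and 30.5 TPM in the METTL16 KO libraries (log2 fold change -0.57, SE 0.064, limma adjusted p 1.2e-05), and the groups did not overlap. It lies from 23304991 to 23395471 on the minus strand. With median-ratio scaling the value was -0.77. The other repressor of retroelements, ZNF93, rose, and the ratio of ZNF91 to ZNF93 within a library was 1.43 and 1.50 in sgNS and 0.683 and 0.676 in METTL16 KO. The ratio of ZNF91 to its nearest measured neighbour toward the centromere, ZNF675, was 1.83 and 1.85 in sgNS and 0.884 and 0.851 in METTL16 KO. In an exact two-sided permutation test each of these ratios had a p of 0.33, the smallest that this number of libraries allows. Of the 4 libraries, both of METTL16 KO were below both of sgNS for each of these ZNF91 ratios. That order follows from the values above, as ZNF91 was lower and ZNF93 and ZNF675 were higher in both METTL16 KO libraries. The ratios are therefore not a further test. Retroelements themselves have no rows in the table analysed here.

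The remaining tested genes did not pass. ZNF681 (3.17 and 3.16 TPM in sgNS, 2.90 and 3.10 TPM in METTL16 KO), ZNF726 (2.59 and 3.52 against 2.69 and 2.78 TPM) and ZNF493 (4.86 and 5.47 against 5.36 and 4.59 TPM) had log2 fold changes of -0.08, -0.14 and -0.05. None of them passed in limma on the values as deposited. The ZNF681 groups did not overlap, and with quantile normalization ZNF681 was at -0.32 and passed as lower (limma adjusted p 0.045). ZNF254, ZNF85, ZNF486 and ZNF682 had log2 fold changes of 0.10, 0.08, 0.04 and 0.03 and overlapping groups, and with either other scaling all 4 were below 0. ZNF626 and ZNF257 had values of 0.33 and 0.31 and groups that did not overlap, but their low levels came with standard errors of 0.15 and 0.15, and they missed the threshold with adjusted p-values of 0.066 and 0.081 in limma. ZNF626 passed in limma without a trend (adjusted p 0.011), and ZNF257 passed without sgNS replicate 2 (log2 fold change 0.52, limma adjusted p 0.011).

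Summed over the 33 members, RNA of the array came to 345 and 369 TPM in the sgNS libraries and 446 and 425 TPM in the METTL16 KO libraries (plot of summed TPM). The log2 ratio of the group means was 0.29, with an exact two-sided permutation p of 0.33, the smallest that 2 libraries against 2 allow. With median-ratio scaling the ratio was 0.09. ZNF91 made up 13.4% of the sum in sgNS and 7.38% in METTL16 KO, and without it, a choice made after its fall was seen, the log2 ratio was 0.38.

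**Figure D3:**
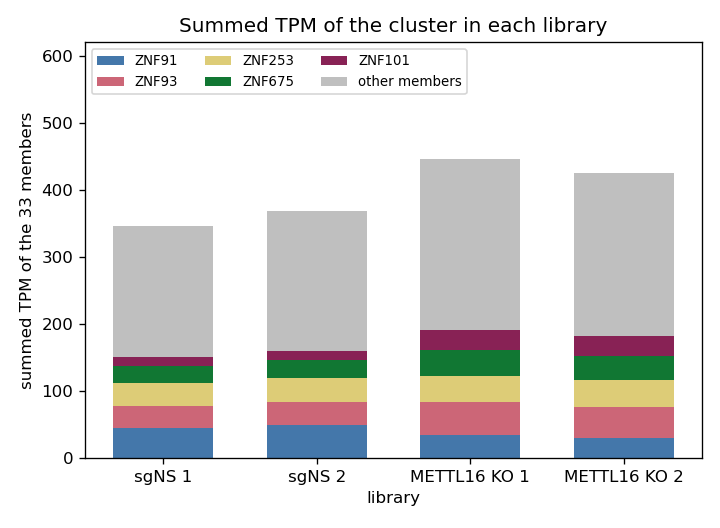
Summed TPM of the 33 measured members in each library, with ZNF91, ZNF93, ZNF253, ZNF675 and ZNF101 shown separately and the other members in grey. The sum is 345 and 369 TPM in the sgNS libraries and 446 and 425 TPM in the METTL16 KO libraries, while the blue ZNF91 segment is smaller in METTL16 KO.

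The array's median fold change was below that of zinc finger genes elsewhere on the chromosome, taken as genes whose symbol is ZNF, ZSCAN, ZKSCAN or ZFP plus digits. The median log2 fold change was 0.50 over 44 other tested genes of the short arm and 0.54 over 149 of the long arm, beside 0.31 over the 24 members and 0.33 over 233 zinc finger genes of other chromosomes. On the short arm 32 of the 44 other genes rose and 0 fell, and on the long arm 119 of 149 rose and 5 fell. The array had 12 rises and 1 fall among 24 genes, and other chromosomes had 145 rises and 23 falls among 233. The share of all genes tested was 50.1% for rises and 25.6% for falls. These lists are described by counts and medians, and the differences between them were not tested.

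**Figure D4:**
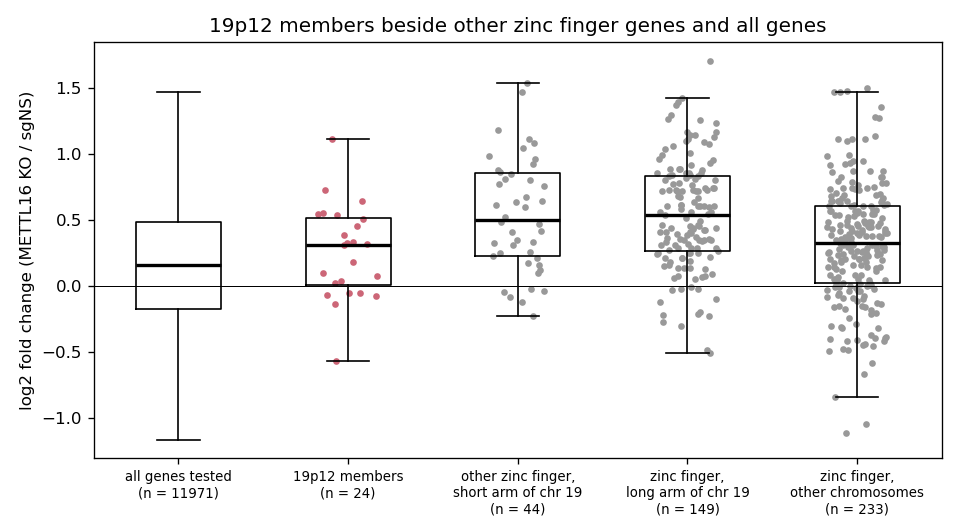
Log2 fold change (METTL16 KO over sgNS) of all genes tested, the 24 members and 3 other lists of zinc finger genes; boxes give the quartiles, thick lines the medians, whiskers reach to the last gene within 1.5 box lengths, and points are genes (for all genes, points and values beyond the whiskers are not drawn). The medians are 0.16 for all genes, 0.31 for the members, 0.50 and 0.54 for the other short-arm and the long-arm genes of chromosome 19, and 0.33 for other chromosomes.

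On the values as deposited, the machinery through which KRAB zinc finger proteins act did not move in 1 direction. Of 33 genes of a corepressor and heterochromatin list, 11 rose, 11 fell and 11 did not pass in limma, beside 50.1% higher and 25.6% lower among all genes, and their median log2 fold change was 0.05. Read against the shift of all genes, 10 of the 33 were above the median gene. TRIM28 went from 375 and 356 TPM in the sgNS libraries to 333 and 321 TPM in the METTL16 KO libraries and fell by 0.16 on the log2 scale (limma adjusted p 0.0020), a call that was lost without METTL16 KO replicate 2 (adjusted p 0.055). SETDB1 was listed at 26.4 and 25.5 TPM against 31.2 and 32.4 TPM and passed (log2 fold change 0.29, limma adjusted p 5.3e-04), but not with median-ratio scaling (0.10, adjusted p 0.13). Of the HP1 genes, CBX3 fell by 0.28, and CBX1 and CBX5, at 0.04 and 0.07, did not pass.
The largest falls in the list were in CHAF1B, a subunit of the chromatin assembly factor, with a log2 fold change of -0.78, in UHRF1, which guides maintenance of DNA methylation, with -0.65, and in MTA2, a NuRD subunit, with -0.54. The largest rises were in KIAA1551, an older name of RESF1, with 0.97, in ATF7IP2 with 0.69 and in MORC3 with 0.45. RESF1 and proteins of the ATF7IP family are known partners of SETDB1. With median-ratio scaling 3 of the 33 genes rose and 20 fell, where 33.8% of all genes were higher and 38.9% lower.

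Sequence shared with transcripts of other genes, whether paralogs or not, limits single values. Among all GENCODE transcripts of the 24 tested members, at most 3.86% of the distinct stretches of the length of a read occurred in transcripts of another gene (ZNF626). The share was 0% for ZNF91, ZNF101, ZNF430, ZNF675 and ZNF708, 0.017% for ZNF93 and 1.76% for ZNF431. Among the 7 members that did not exceed 0.03 TPM it ranged from 0% for ZNF728 to 23.5% for ZNF98. It was 18.2% for ZNF492, which shares most of it with ZNF98, 19.7% for ZNF208, and 0.36%, 0.75% and 2.52% for ZNF99, ZNF729 and ZNF730. Sequencing errors and the annotation the authors used were not part of this count.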

How the data were processed

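RNA-seq was analysed in 4 Huh7 libraries, 2 of sgNS and 2 of METTL16 KO, grouped and numbered by their sample titles. Libraries were prepared with a stranded mRNA kit per the methods, while the labels also name depletion of ribosomal RNA. Per the methods, paired-end reads were trimmed (Cutadapt), aligned to GRCh38 (STAR) and quantified per gene (RSEM) by the authors. Their tool versions and gene annotation are not given in the sources used here. The deposited values are called RPKM in the methods, but each library sums to 1000000 within rounding, so they were treated as TPM, rounded to 2 decimals by the authors. No column was left out. The table was read by column name.

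log2(TPM + 0.1) of genes with a mean of at least 1 TPM over the 4 libraries was fitted with limma 3.58.1 (R 4.3.3, lmFit, eBayes with trend), two-sided, without a block, over all 11971 genes. Called means an adjusted p under 0.05. In simulated data for these genes, 180 of 200 genes changed by 1 on the log2 scale were recovered. Positions are from GENCODE release 44 (17774 of 18806 symbols matched), and promoter sequences are RefSeq's, aligned in pairs with Biopython 1.88. Per-library values were given for METTL16, the 8 members with the largest change, the 6 most abundant, all tested members with a negative value, and others where a result turned on them. Of the corepressor list, TRIM28, SETDB1 and the 3 largest changes in each direction were named. CBX1, CBX3 and CBX5 were added after their values were seen. The members and lists were chosen with earlier results of these data known. Alternatives changed the pseudocount, filter, scaling, moderation, call rule and block, or left out 1 library each.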

Additional observations from a re-analysis of the deposited data

How the results depend on the processing

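ZNF101, ZNF431, ZNF430, ZNF100, ZNF737, ZNF93, ZNF675 and ZNF708 kept their direction and passed under each of the 13 alternative fits tried, and ZNF91 was lower in all of them and missed the threshold only in the unmoderated linear model (adjusted p of 0.055). The call at an unadjusted p under 0.01 with a log2 fold change of at least 1 or at most -1 left 1 member higher and 0 lower, 920 and 449 of all genes, and 0 and 0 of the corepressor list. Median-ratio scaling called 3 members lower, and quantile normalization called 4. Of all genes, 4651 were lower with median-ratio scaling and 1949 in the unmoderated linear model. In the corepressor list 3 were higher after median-ratio scaling and 6 after quantile normalization, while 20 were lower with median-ratio scaling and 6 in the unmoderated model. The members' median log2 fold change was 0.25 with a pseudocount of 1, 0.19 with all genes above 0 (where the median of all genes was 0.20, no lower than that of the members), 0.12 with median-ratio scaling, 0.083 with quantile normalization and 0.18 to 0.38 with 1 library left out. For the members' summed TPM the log2 ratio was 0.088 with median-ratio scaling, 0.38 without ZNF91 (chosen after seeing the data) and 0.24 to 0.33 with 1 library left out.
Members that lost their direction under some alternative were as follows. With median-ratio scaling the log2 fold changes were -0.013 for ZNF253, -0.16 for ZNF682, -0.15 for ZNF486, -0.12 for ZNF85 and -0.097 for ZNF254, and with quantile normalization they were -0.26 for ZNF682, -0.16 for ZNF486, -0.10 for ZNF85 and -0.071 for ZNF254. With 1 library left out they ran from -0.18 to 0.23 for ZNF682, from -0.016 to 0.096 for ZNF486, from -0.0052 to 0.16 for ZNF85, from -0.16 to 0.055 for ZNF493, from -0.17 to 0.039 for ZNF43 and from -0.35 to 0.076 for ZNF726. ZNF14, ZNF253 and ZNF429 missed the threshold with either other scaling and in the unmoderated model, and ZNF506 missed it in the unmoderated model alone.
Replicate numbers came from the titles, and the deviations of same-numbered libraries had a correlation of -0.044. No shared shift of same-numbered libraries was visible, but whether such libraries were prepared together is unknown. With a replicate block 13 of the 24 members were higher and 1 lower, where 6048 of 11971 genes were higher and 3112 lower. ZNF257 then passed (limma adjusted p 0.033). In that fit the limma adjusted p of ZNF101 was 4.5e-51, against 4.7e-08 without the block. Such a value from 4 libraries cannot be taken at face value, so no weight is put on the added pass of ZNF257. With the depth unknown, it cannot be said which members under 1 TPM lacked RNA.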
